A study of Danio rerio with 12 samples.

Results

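The troponin complex is the calcium switch of striated muscle. It sits on the thin filament in 3 parts: troponin C binds calcium, troponin I holds the filament off until calcium arrives, and troponin T ties the complex to tropomyosin. Vertebrates carry separate genes for the fast, slow and cardiac versions of each part, and in zebrafish many of these genes exist in several copies. The 9 genes described here carry slow or cardiac-type names and were picked by symbol from the 32520 genes counted in each library. They comprise the troponin I genes tnni1a (ENSDARG00000000474.9), tnni1b (ENSDARG00000052708.7) and tnni4b.2 (ENSDARG00000036671.8). The troponin T genes are tnnt1 (ENSDARG00000037954.9), tnnt2a (ENSDARG00000020610.11), tnnt2d (ENSDARG00000002988.10) and tnnt2e (ENSDARG00000045822.6). The troponin C genes are tnnc1a (ENSDARG00000011400.6) and tnnc1b (ENSDARG00000037539.5). The 9 are part of 25 troponin genes found in the files, among them 10 fast genes and 6 others with slow or cardiac names. They were chosen with their levels in the 4 groups known, so differences between the muscles are given as a description without a test, and tests are limited to the genotype comparisons.

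The study sequenced polyadenylated RNA of the eye muscles, or extraocular muscle (EOM), and of trunk muscle from AB zebrafish aged 5 months. Fish of the mutant groups were homozygous for mutations in both desmin genes, desma-/-;desmb-/-, and the wild type (WT) fish came from the line in which the mutant was made. Desmin is the intermediate filament protein that links the contractile fibrils of a muscle cell to each other and to its membrane. The 4 groups are mutant EOM, WT EOM, mutant trunk and WT trunk, with 3 libraries each, and the question put by the study is how EOM and trunk muscle respond to the loss of desmin. In the series text desmin is described as knocked down and sampled at several ages. The sample labels name only these double mutants and 1 age, and they were followed here. The labels do not say whether a library holds the muscle of 1 fish or of several.

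Libraries held 64544544 to 91115096 reads on the strand of a gene, and levels are given as CPM, read counts set against the library total after the TMM scaling of edgeR. The level of desma averaged 23.2 ± 3.95 CPM in mutant EOM and 868.8 ± 418 CPM in WT EOM. In trunk it averaged 44.5 ± 14.5 CPM in the mutant and 574.7 ± 56.5 CPM in WT (SD, n = 3 each). All 7 striated muscle markers found were above 1 CPM in every group, but their levels were not alike in the muscles. Their summed level was 17400 to 51400 CPM in mutant EOM and 18100 to 61000 CPM in WT EOM. In trunk it was 121000 to 255000 CPM in the mutant and 96000 to 118000 CPM in WT. Their median log2 fold change, EOM over trunk, was -4.51 in the mutant and -3.31 in WT, and 0 of the 7 were positive. All 8 heart markers found were under 1 CPM in every group, with a summed level of 0.359 to 0.709 CPM in mutant EOM, 0.378 to 0.684 CPM in WT EOM, 0.256 to 0.437 CPM in mutant trunk and 0.543 to 0.938 CPM in WT trunk. Photoreceptor markers were read in EOM, with a summed level of 4.47 to 9.67 CPM in mutant EOM and 7.25 to 14.6 CPM in WT EOM, against at most 0.346 CPM in mutant trunk and 0.31 CPM in WT trunk. Mutant trunk library 2 had the lowest scaling factor of all, 0.569, and the other libraries ranged from 0.654 to 1.74.

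EOM and trunk muscle used different copies of the slow and cardiac-type troponins. The genes tnni1a, tnni1b, tnnt1 and tnnt2a were higher in EOM than in trunk, tnni4b.2, tnnt2d and tnnt2e were lower, and tnnc1b overlapped between the muscles. The same 4 genes were higher and the same 3 lower in mutant and in WT fish, so 7 of the 8 genes with enough reads did not overlap between the muscles in either genotype. Such separation was common. Of all 18049 genes tested in the mutant 23.5% did not overlap between the muscles, 13.6% higher and 9.95% lower in EOM, and of the 18981 tested in WT 44.7% did not, 23.2% higher and 21.5% lower. The fast troponins separated as well. Of 10 tested, 4 were higher and 5 lower in EOM without overlap in the mutant, and 5 higher and 4 lower in WT. In whole muscle RNA, fewer fibres that express a gene and less RNA in each fibre cannot be told apart.

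**Figure D1:**
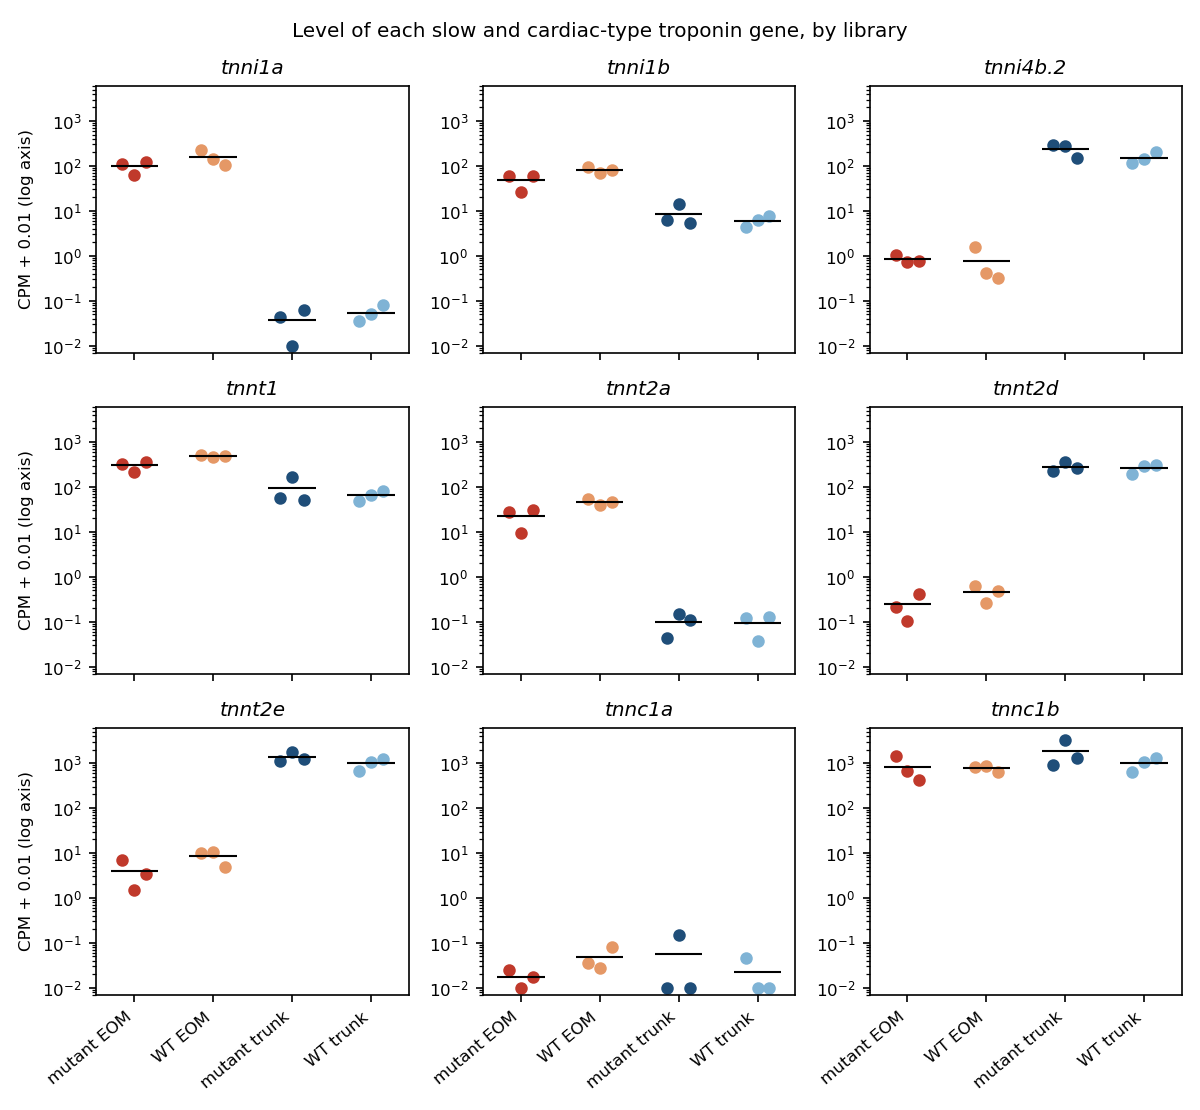
Level of each gene in the 12 libraries, as CPM with a small offset on a log axis, with the 3 libraries of a group as points and their mean as a line. The genes tnni1a, tnni1b, tnnt1 and tnnt2a sit higher in mutant EOM and WT EOM than in mutant trunk and WT trunk, tnni4b.2, tnnt2d and tnnt2e sit lower, and tnnc1a stays near the bottom of the scale in every group.

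Among the troponin T genes, tnnt1, the slow skeletal form, was read at 332, 212 and 368 CPM in mutant EOM libraries 1 to 3 and at 524, 455 and 500.2 CPM in WT EOM. In trunk it was read at 56.0, 171 and 52.5 CPM in the mutant and at 49.3, 66.7 and 83.3 CPM in WT. All EOM libraries lay above all trunk libraries, and the level in trunk stayed well above zero. On the log2 scale EOM exceeded trunk by 1.51 (SE 0.57) in the mutant and by 2.85 (SE 0.30) in WT.

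The gene tnnt2a encodes the cardiac troponin T of zebrafish, whose loss stops the embryonic heart from beating in silent heart mutants. Its level was 27.4, 9.34 and 30.7 CPM in mutant EOM and 53.2, 40.3 and 46.9 CPM in WT EOM. In trunk it was nearly absent, with 2, 6 and 8 reads in the mutant libraries and 9, 2 and 10 reads in the WT libraries. EOM exceeded trunk by 7.78 (SE 0.74) in the mutant and by 9.02 (SE 0.41) in WT on the log2 scale, and both values rest on these few trunk reads. The level of tnnt2a in EOM, 9.34 to 53.2 CPM with 593 to 5136 reads per library, stood beside heart markers that were all under 1 CPM. Those markers hold no troponin gene, and a part of heart tissue in the EOM reads was not tested.

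The genes tnnt2d and tnnt2e, further copies in the cardiac-named troponin T family, showed the opposite order. The level of tnnt2d was 0.210, 0.0945 and 0.410 CPM in mutant EOM, with 6 to 55 reads per library, and 225, 359 and 265 CPM in mutant trunk. WT EOM had 0.618, 0.248 and 0.465 CPM of it, against 198, 293 and 310.0 CPM in WT trunk. All EOM libraries lay below all trunk libraries, with log2 fold changes of -10.32 (SE 0.78) in the mutant and -9.29 (SE 0.47) in WT, the widest separations among the 3 genes that were lower in EOM. For tnnt2e the levels were 6.91, 1.48 and 3.42 CPM in mutant EOM and 1093, 1752 and 1212 CPM in mutant trunk. WT EOM had 10.2, 10.3 and 4.90 CPM of tnnt2e and WT trunk 677, 1051 and 1241 CPM. The log2 fold change of tnnt2e, EOM over trunk, was -8.63 (SE 0.82) in the mutant and -6.90 (SE 0.49) in WT.

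The troponin I genes divided in the same manner. The gene tnni1a, a slow-type troponin I, was read at 108.97, 61.3 and 122 CPM in mutant EOM and at 223, 143 and 107.5 CPM in WT EOM. Mutant trunk libraries held 2, 0 and 4 reads of it and WT trunk libraries 2, 3 and 6 reads. EOM therefore held 3894 to 17689 reads per library against at most 6 in any trunk library. The fitted log2 fold change, EOM over trunk, was 11.38 (SE 0.79) in the mutant and 11.69 (SE 0.52) in WT, and both depend on those few trunk reads.

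The second slow-type copy, tnni1b, was not restricted in this way. Its level was 58.4, 26.1 and 58.5 CPM in mutant EOM and 6.21, 14.4 and 5.51 CPM in mutant trunk. In WT it was 95.7, 68.1 and 82.2 CPM in EOM, against 4.41, 6.19 and 7.70 CPM in trunk. All EOM libraries were above all trunk libraries, with log2 fold changes of 2.26 (SE 0.53) in the mutant and 3.71 (SE 0.28) in WT. Every trunk library held between 356 and 666 reads of tnni1b.

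The gene tnni4b.2 was read mainly in trunk. It was read at 1.05, 0.725 and 0.746 CPM in mutant EOM and at 287, 282 and 153 CPM in mutant trunk. WT EOM had 1.59, 0.416 and 0.310 CPM and WT trunk 116, 139 and 207 CPM. No EOM library reached the level of a trunk library, and the log2 fold changes were -8.32 (SE 0.64) in the mutant and -7.70 (SE 0.69) in WT. This gene lies directly beside a close relative, tnni4b.1, in the gene order of the files, so reads of the copies may be split between them. Counting without regard to strand left 23836 of its 79288 reads over the 12 libraries, so its level depends on the strand information, whereas for the other 8 genes the counts with and without strand were nearly equal.

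The slow and cardiac-named troponin C genes did not separate the muscles. The gene tnnc1b was read at 1400, 661 and 427 CPM in mutant EOM and at 918, 3197 and 1317 CPM in mutant trunk. In WT it was read at 809.5, 859 and 631 CPM in EOM, against 625, 1040 and 1324 CPM in trunk. The groups overlapped in both genotypes, with log2 fold changes of -1.35 (SE 0.65) in the mutant and -0.41 (SE 0.36) in WT. The other copy, tnnc1a, is the cardiac troponin C of zebrafish, and it was at 0 to 8 reads in each of the 12 libraries, too few to test or to compare.

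**Figure D2:**
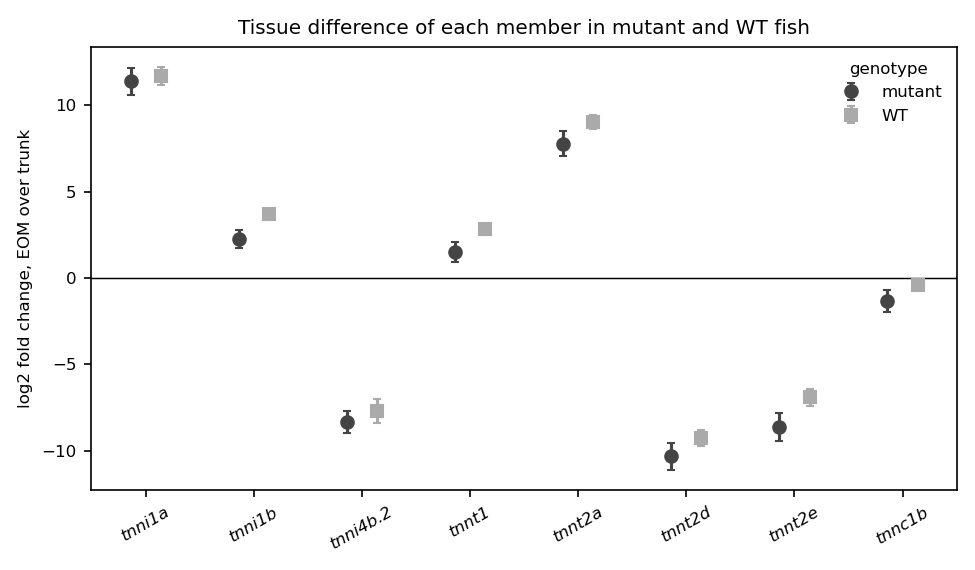
Log2 fold change of EOM over trunk for the 8 genes with enough reads, in mutant fish (dark circles) and WT fish (light squares), with the standard error as bars. The values run from 11.38 for tnni1a to -10.32 for tnnt2d in the mutant, and tnnc1b, whose libraries overlap between the muscles, is at -1.35 in the mutant and -0.41 in WT.

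The order of the groups by mean level is given with the overlap of their libraries, as a description and not as a test. For tnnt1 the means were 304 ± 82.0 CPM in mutant EOM and 493 ± 35.2 CPM in WT EOM, against 93.1 ± 67.3 CPM in mutant trunk and 66.4 ± 17.0 CPM in WT trunk (SD, n = 3 each). Mutant EOM and WT EOM did not overlap, nor did mutant EOM and mutant trunk, while mutant trunk and WT trunk did. For tnnt2a and tnni1b the order was the same, with WT EOM above mutant EOM and no overlap between them, and the trunk groups last and overlapping. Of all genes tested in EOM, 6.57% separated in this way with the mutant lower. Without pairing, none of tnnt1, tnnt2a and tnni1b passed between mutant EOM and WT EOM in edgeR. For tnni1a, tnni4b.2, tnnt2d and tnnt2e only the step between EOM and trunk was free of overlap, and neighbours within a muscle overlapped.

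For troponin T and troponin I, the make-up of the slow and cardiac-named reads differed between the muscles, while tnnc1b took nearly all of those reads for troponin C in every library. These are shares of reads and are not corrected for transcript length, so they set libraries beside each other and not genes. Of the troponin T reads with slow or cardiac names, tnnt1 took 90.4 ± 2.36% in mutant EOM and 88.6 ± 0.451% in WT EOM, against 4.97 ± 2.16% in mutant trunk and 5.03 ± 0.303% in WT trunk (SD, n = 3 each). The gene tnnt2a took 6.29 ± 1.89% in mutant EOM and 8.38 ± 0.551% in WT EOM, and at most 0.012% in any trunk library. In trunk most of these reads came from tnnt2e, with 78.1 ± 1.55% in the mutant and 74.3 ± 1.38% in WT, and from tnnt2d, with 16.4 ± 0.80% in the mutant and 20.3 ± 1.27% in WT. In EOM, tnnt2e took 1.11 ± 0.645% in the mutant and 1.53 ± 0.587% in WT.

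Of the troponin I reads with slow or cardiac names, tnni1a took 26.6 ± 5.99% in mutant EOM and 29.6 ± 4.67% in WT EOM, against at most 0.00503% in any trunk library. The share of tnni1b was 12.7 ± 2.86% in mutant EOM and 15.9 ± 2.41% in WT EOM, against 0.524 ± 0.11% in mutant trunk and 0.60 ± 0.0601% in WT trunk. The share of tnni4b.2 was 15.3 ± 3.28% in mutant trunk and 15 ± 1.04% in WT trunk, and at most 0.293% in any EOM library. The rest came mainly from 3 further genes. The gene tnni1d took 43.0 ± 5.66% in mutant EOM and 39.5 ± 6.19% in WT EOM, and 16.1 ± 3.56% in mutant trunk and 10.1 ± 0.498% in WT trunk. The share of tnni1c was 37.1 ± 2.08% in mutant trunk and 40.7 ± 1.99% in WT trunk, and 15.4 ± 8.6% in mutant EOM and 12.8 ± 5.06% in WT EOM. In trunk, tnni4b.1 took 29.9 ± 2.16% in the mutant and 32.8 ± 0.561% in WT (SD, n = 3 each), and at most 0.106% in any EOM library.

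**Figure D3:**
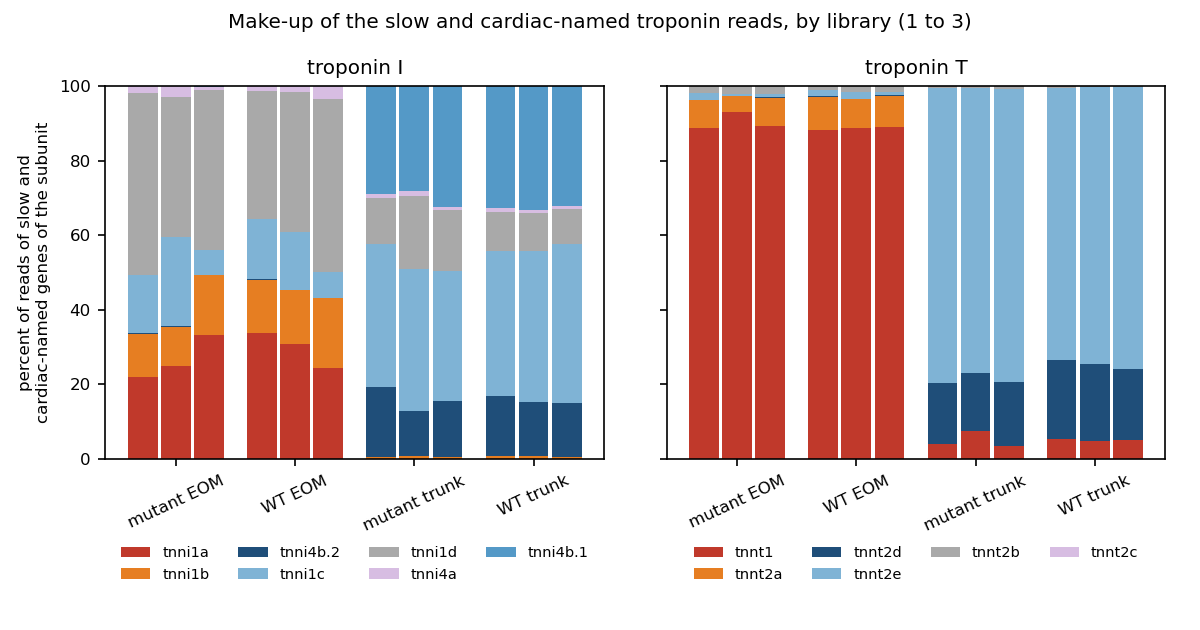
Make-up of the troponin I reads (left) and troponin T reads (right) with slow or cardiac names, in percent, 1 bar for each of the 12 libraries, grouped as mutant EOM, WT EOM, mutant trunk and WT trunk. In troponin T, tnnt1 takes 88.2 to 93.1% of each EOM bar and tnnt2e 72.9 to 79.2% of each trunk bar.

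The slow and cardiac-named genes as a whole took overlapping parts of all troponin reads in EOM and trunk libraries, in contrast to the copies within them. Their share of troponin I reads was 8.13 ± 2.17% in mutant EOM and 10.6 ± 0.704% in WT EOM, and 9.64 ± 1.65% in mutant trunk and 11.8 ± 5.16% in WT trunk. Of troponin T reads it was 4.90 ± 3.99% in mutant EOM and 6.59 ± 3.16% in WT EOM, and 7.31 ± 3.06% in mutant trunk and 9.91 ± 3.81% in WT trunk. Of troponin C reads it was 19.3 ± 2.6% in mutant EOM and 20.0 ± 7.52% in WT EOM, and 18.6 ± 7.13% in mutant trunk and 16.1 ± 6.63% in WT trunk (SD, n = 3 each). The libraries of EOM and trunk overlapped in all 3 of these shares.

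Several of the genes lie beside a troponin gene of the other kind in the gene order of the deposited files. The genes tnnt2a and tnni1a are 2 positions apart, and both were high in EOM and nearly absent in trunk. The genes tnnt2d and tnni4b.2 are 4 positions apart, with tnni4b.1 next to tnni4b.2, and all 3 were high in trunk and low in EOM. The pairing of position and pattern was not general. The gene tnnt2e lies 2 positions from tnni4a, which was read at 3.78 to 15.1 CPM in EOM, against 6.55 to 32.6 CPM in trunk, and tnni1b lies next to tnnt2b, which was read at 4.62 to 9.14 CPM in EOM, against 3.92 to 14.3 CPM in trunk.

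For each of the 8 genes, the genes with the most similar pattern over the 12 libraries were found among genes with a mean of at least 1 CPM. The measure was the root mean square difference of log2 CPM, with a prior count of 2, each gene centred on its own mean. Among the genes closest to tnni1a were frmd3 with a difference of 1.61 and tnnt2a with 1.62. Among those closest to tnnt2a were lingo4b with 0.57 and emx1 with 0.85. For tnnt1 the nearest were ccsapb and fzd10, both with 0.28, and tnni1b with 0.40, and for tnni1b they were rbp5 with 0.35, chrdl2 with 0.39 and tnnt1. The trunk genes had Hox genes as their nearest, which mark position along the body axis. These were hoxb10a with 0.63, hoxc10a with 0.64 and hoxc3a with 0.79 for tnnt2d, and hoxa10b with 0.59, hoxc9a with 0.66 and hoxb7a with 0.66 for tnni4b.2. For tnnt2e they were hoxd10a with 0.62, hoxb7a with 0.67 and mybpc2b, a fast-type myosin-binding protein gene, with 0.69. The nearest genes of tnnc1b were si:ch211-85n16.3 with 0.25, the mitochondrial ribosomal gene mrpl47 with 0.27 and dnajc19, of a mitochondrial import protein, with 0.29. The 12 libraries share their tissue groups, so the size and direction of the difference between the muscles enters each of these values. The Hox genes named averaged at most 0.0299 CPM in mutant EOM and in WT EOM, so their log2 levels there depend on the prior count.

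In EOM, 6 of the 8 genes tested were lower in the mutant by their estimates, and tnnt2a and tnnt2e fell in edgeR when libraries of the same number were compared as pairs. The mutant mean was 48.1% of the WT mean for tnnt2a and 46.6% for tnnt2e. It was 61.8% for tnni1a, 58.1% for tnni1b, 61.7% for tnnt1 and 53.7% for tnnt2d. Without pairing, no gene of the 8 passed the threshold of an adjusted p of 0.05 in the edgeR test, which called 57 of 18804 genes, or 0.303%. DESeq2 and limma-voom without pairing also called none of the 8. At an unadjusted p under 0.05 the 8 held 2 genes, tnnt2a and tnnt2e, both lower in the mutant, as were 2.79% of all genes at that level. EOM libraries of the same number deviated together in these data, and the labels give no pairing. The paired fit tests the same counts from which its pairing was chosen, so its p-values may be too small. In the fit paired by number 2 of the 8 were called lower, against 2.02% of all genes. The median log2 fold change of the 8 was -0.76 without pairing, beside 0.03 over all genes tested, and -0.81 with pairing, beside -0.04.

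The level of tnnt2a in the mutant was 51.6%, 23.2% and 65.5% of that in WT in pairs 1, 2 and 3. After TMM scaling the mutant libraries did not overlap with the WT libraries, and with library totals alone they did. The change on the log2 scale came to -1.08 (SE 0.47, adjusted p 0.799 in edgeR) without pairing and -1.24 (SE 0.33, adjusted p 0.0136 in edgeR) with pairing. For tnnt2e the pairs gave 67.8%, 14.4% and 69.7%, and the groups overlapped, since mutant EOM library 1 lay above WT EOM library 3. The change of tnnt2e was -1.13 (SE 0.50, adjusted p 0.832 in edgeR) without pairing and -1.26 (SE 0.35, adjusted p 0.0208 in edgeR) with pairing. In a paired DESeq2 fit tnnt2a passed (adjusted p 0.0146) and tnnt2e did not (adjusted p 0.0811). Pair 2 carried much of both changes. Without pair 2 the paired fit gave -0.79 for tnnt2a (adjusted p 0.491 in edgeR) and -0.55 for tnnt2e (adjusted p 0.732 in edgeR). Without pair 1 the adjusted p in edgeR was 0.0911 for tnnt2a and 0.141 for tnnt2e, and without pair 3 both passed, with 0.0293 and 0.0178.

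The remaining 6 genes did not pass with or without pairing. For tnnt1 the pairs gave 63.4%, 46.6% and 73.6% of WT, and for tnni1b 61.0%, 38.3% and 71.2%. In both genes every mutant EOM library lay below every WT EOM library after TMM scaling, as for tnnt2a. Of all genes 6.57% showed such separation with the mutant lower. With library totals alone the mutant and WT libraries overlapped in these genes. The log2 fold change of tnnt1 was -0.75 (SE 0.33, adjusted p 0.244 in edgeR) and that of tnni1b -0.88 (SE 0.33, adjusted p 0.128 in edgeR) in the paired fit. For tnni1a the pairs gave 48.8%, 42.9% and 114%, so pair 3 ran the other way, and the paired change was -0.72 (SE 0.33, adjusted p 0.282 in edgeR). For tnnt2d, with 6 to 55 reads per EOM library, it was -1.02 (SE 0.78, adjusted p 0.622 in edgeR). The estimates of tnni4b.2, 0.46 (SE 0.52), and of tnnc1b, -0.07 (SE 0.34), had adjusted p of 0.78 and 0.959 in the same edgeR fit. A 95% interval for tnnc1b by normal approximation, likely too narrow for so few libraries, ran from -0.75 to 0.60 on the log2 scale.

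**Figure D4:**
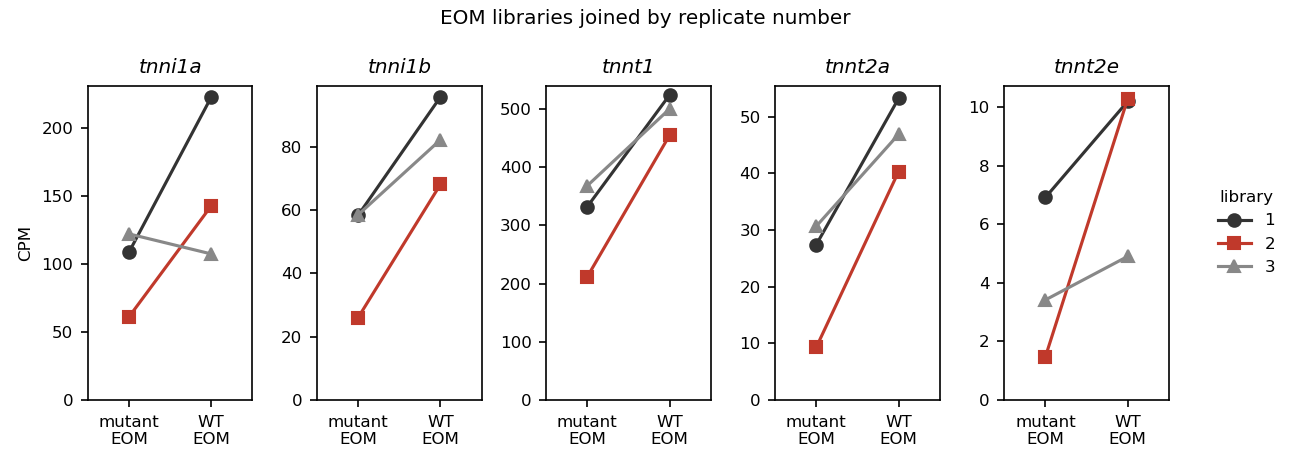
Level in CPM of 5 genes in the mutant EOM and WT EOM libraries, with libraries of the same number joined by a line, each panel on a linear axis from 0. For tnni1b, tnnt1, tnnt2a and tnnt2e all 3 lines are lower at the mutant end, and for tnni1a the line of pair 3 is higher at the mutant end, with 122 CPM in mutant EOM and 107.5 CPM in WT EOM.

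Mutant EOM library 2 had the lowest level of the 6 EOM libraries for 6 of the 8 genes, and WT EOM library 1 the highest for 6 of the 8. Mutant EOM library 2 also had reads of fewer genes, 19431, against 22248 to 24467 in the other EOM libraries. The summed level of 5 tendon and fibroblast markers was 2095 CPM in mutant EOM library 2, against 779 and 863 CPM in the other mutant EOM libraries and 833 to 1200 CPM in WT EOM. The summed level of 7 leukocyte markers was 578 to 1800 CPM in mutant EOM and 401 to 580 CPM in WT EOM, and cd74a (log2 fold change 1.19, adjusted p 0.0253 in edgeR) and cd74b (1.25, adjusted p 0.0106 in edgeR) rose in the paired fit. The summed striated muscle markers ranged from 17400 to 51400 CPM in mutant EOM and from 18100 to 61000 CPM in WT EOM. Without pairing, 1 of these 7 markers had a positive estimate, and their median was -0.47, beside 0.03 over all genes tested. With pairing, 2 of the 7 were positive, and the median was -0.37, beside -0.04. The part of these markers, or of the number of genes read, in the change of tnnt2a and tnnt2e was not tested.

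On the other lists of contractile genes, edgeR called none in EOM without pairing and 3 with it. Of 12 slow and cardiac myosin and C-protein genes tested, 2 fell and none rose in the paired fit, where 2.02% of all genes fell. They were smyhc1, a slow myosin heavy chain gene, at -1.10 on the log2 scale (SE 0.33, adjusted p 0.0307 in edgeR), and myh6, an atrial-type myosin heavy chain gene, at -2.17 (SE 0.53, adjusted p 0.0049 in edgeR) at a level of at most 2.32 CPM in any EOM library. Of the 10 fast troponins 1 rose and none fell, where 1.08% of all genes rose. It was a fast troponin I gene listed as TNNI2 (ENSDARG00000045592), with 1.85 (SE 0.49, adjusted p 0.0106 in edgeR) at a level of 0.219 to 2.69 CPM in EOM. None of the 5 other slow or cardiac-named troponins tested, the 15 thin filament partners, the 4 calcium handling genes or the 11 slow fibre regulators was called in the paired edgeR fit, and at an unadjusted p under 0.05 these held 0, 2, 0 and 0 genes, against 14% of all genes.

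In trunk, the estimates of all 6 genes tested were positive and none passed. The fit had 6 genes because tnni1a, tnnt2a and tnnc1a had too few trunk reads. edgeR called 6 of 18041 genes in trunk, or 0.0333%, and none of the 6 troponins passed even an unadjusted p under 0.05, which 13.1% of all genes did. DESeq2 and limma-voom also called none of them. None of the 6 separated mutant from WT, and 26.8% of all genes did so. The largest estimates were 0.90 for tnnc1b (SE 0.53, adjusted p 0.495 in edgeR, 95% interval by normal approximation -0.13 to 1.93) and 0.67 for tnni4b.2 (SE 0.34, adjusted p 0.44 in edgeR). The others were 0.54 for tnni1b, 0.52 for tnnt1, 0.48 for tnnt2e and 0.11 for tnnt2d, with adjusted p from 0.535 to 0.854 in edgeR. The median of the 6 was 0.53, beside -0.03 over all genes tested.

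The sign of 4 of these trunk estimates depended on single libraries or on the scaling, and those of tnni4b.2 and tnnc1b stayed positive under the alternatives run. Mutant trunk library 2 was the highest of the 6 trunk libraries for 5 of the 6 genes, and WT trunk library 1 the lowest for all 6. Reads of 19402 genes were found in mutant trunk library 2, against 21556 to 24170 in the other trunk libraries. Its unmapped share of 14.82% and multimapping share of 12.51% were the highest of the 12 libraries. Without mutant trunk library 2 the estimates of tnni1b, tnnt1 and tnnt2d were -0.06, -0.29 and -0.12, and that of tnnc1b was 0.17. Without WT trunk library 1 the estimate of tnnt2d was -0.06. With scaling by library totals alone the median of all genes moved by -0.47, and only tnni4b.2 (0.11) and tnnc1b (0.31) of the 6 genes had a positive estimate. The summed level of the 7 leukocyte markers was 331 to 452 CPM in mutant trunk and 167 to 194 CPM in WT trunk. That of the 7 striated muscle markers was 121000 to 255000 CPM in mutant trunk and 96000 to 118000 CPM in WT trunk. Of these muscle markers 6 had positive estimates, with a median of 0.71. No marker of either set was called by edgeR, and the part of these markers in the trunk values was not tested. Among the slow and cardiac myosin genes, smyhc1 had a trunk estimate of -1.80 (SE 0.38, adjusted p 0.181 in edgeR), with every mutant trunk library below every WT trunk library. None of the genes on the other lists was called in trunk by edgeR. All 5 other slow or cardiac-named troponins tested had positive estimates, with a median of 1.07. Of these 3 had an unadjusted p under 0.05 in edgeR, and 2 separated with the mutant higher. Of 9 fast troponins 6 were positive and 4 had an unadjusted p under 0.05, against 13.1% of all genes. Mutant trunk library 2 was the highest for 12 of these 14 troponins. The further troponins with the highest estimates were a fast troponin I gene listed as TNNI2 (ENSDARG00000035958), with 2.54 (SE 0.33, adjusted p 0.0626 in edgeR), and tnni1d, with 1.4 (SE 0.45, adjusted p 0.311 in edgeR).

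**Figure D5:**
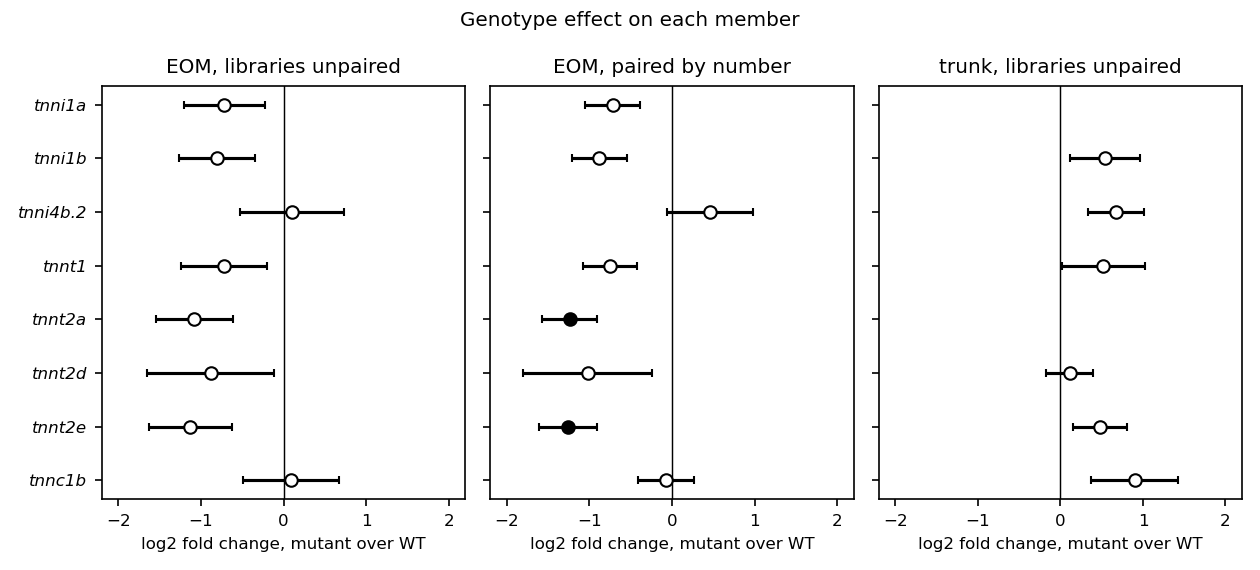
Log2 fold change of mutant over WT for each gene in EOM without pairing (left), in EOM with libraries paired by number (middle) and in trunk (right), with the standard error as bars and filled points where the adjusted p was under 0.05. Filled points are tnnt2a at -1.24 and tnnt2e at -1.26 in the paired EOM fit, and tnni1a and tnnt2a have no trunk value.

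The difference between the genotype effects, the effect in EOM minus that in trunk, was negative for the 6 genes with enough reads in both muscles and passed for none of them. The genes tnni1a and tnnt2a entered the same fit through their EOM reads alone, so their estimates of -0.27 (SE 0.97) and -1.15 (SE 0.81) rest on a trunk effect that was not measured. This interaction called 2 of 20041 genes in edgeR, or 0.00998%, and tnni1b and tnnt2e were negative with an unadjusted p under 0.05, as were 2.45% of all genes. DESeq2 and limma-voom called none of these genes either. Negative estimates were common among muscle genes, beside a median of 0.03 over all genes tested. Of the 6 other slow or cardiac-named troponins 0 were positive (median -1.46), and of the 7 striated muscle markers 0 (median -1.2). Of the 10 fast troponins 1 was positive (median -0.64). Slow and cardiac myosin and C-protein genes had a median of -0.27 and thin filament partners of -0.48. Calcium handling genes had a median of 0.31 and slow fibre regulators of 0.06. Estimates were -1.59 (SE 0.71) for tnnt2e, -1.34 (SE 0.58) for tnni1b and -1.23 (SE 0.62) for tnnt1, each with an adjusted p of 0.934 in edgeR. Without mutant trunk library 2 they were -1.36 for tnnt2e, -0.77 for tnni1b and -0.44 for tnnt1, and tnnc1b was -0.08 in place of -0.78. Without mutant EOM library 1 tnnt2e was -2.28 and tnnc1b -1.40, and without mutant EOM library 3 tnnt2d was -1.61 in place of -0.95. With scaling by library totals alone the median of all genes moved by 0.39, and of the 6 genes only tnni4b.2 was positive, at 0.09. The lower estimates of tnnt2a and tnnt2e in mutant EOM passed only in fits paired by number, a pairing inferred from these data. They were not shown to differ from the effect in trunk. There tnnt2a had 2 to 10 reads per library and tnnt2e an estimate of 0.48 (SE 0.33, adjusted p 0.535 in edgeR). The interaction fit did not use the pairing of the EOM libraries.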

How the data were processed

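Each of the 12 libraries has a file of raw counts of reads for every gene, as deposited by the authors, in 3 columns: reads of either strand, of the gene's strand and of the opposite strand. The submitters' processing notes name STAR, DESeq2 and the build GRCz11, and versions and settings are not given in the sources used here. Libraries were TruSeq Stranded mRNA with poly-A selection, per the labels' protocols. The gene-strand column, which held 96.43 to 97.26% of stranded reads, was used, and lines that name no gene were left out. Multimapping reads, 8.28 to 12.51% of a library, are in no gene count, so near-identical copies are uncertain.

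Gene symbols were read from a name table (14464 genes). Where it lists a human-style symbol, neighbouring genes in the RefSeq annotation of GRCz12tu gave the symbol (10775 genes). A check took genes of known symbol in pairs of copies named a and b, where neighbours gave a clear answer. The symbol was right for 99.77% of 1277 such genes, which does not measure larger families such as tnni1 and tnnt2. Of the 9 genes, tnni1a, tnni1b, tnnt1, tnnt2a and tnnc1b were named by neighbours.

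Genotypes were compared within each muscle, and between muscles by an interaction over 12 libraries, with edgeR 4.0.16 (quasi-likelihood test, R 4.3.3). TMM scaling, robust dispersions, filterByExpr with a minimum count of 10 and a minimum total of 15, Benjamini-Hochberg adjustment over all genes tested and a threshold of 0.05 were used. A check of the code on simulated counts used a single spread and changes larger than the main genotype estimates of these genes. It therefore does not show what changes of their size the tests can find. Muscles were compared by log2 fold change and overlap of libraries without a test. Standard errors were derived from each log2 fold change and its F statistic. EOM libraries were also paired by replicate number, because their deviations from the group means correlated by 0.29, 0.25 and 0.55 in pairs 1, 2 and 3, all above 0.1. Of EOM libraries with unlike numbers, mutant 2 and WT 1 correlated by 0.17 and the rest were negative. The pairing is therefore inferred from these data, the same that the paired fit tests, and its p-values may be too small. The labels do not state what the numbers stand for. Alternatives were RLE scaling, library totals, no filter, DESeq2 1.42.0, limma-voom (limma 3.58.1), unstranded counts, a replicate block, 1 fit of 12 libraries and leaving out each library.

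The genes and gene lists were chosen with earlier results of these data known. Named were all 9 genes and desma, other troponins, genes of the other lists past the threshold, and for each of the 9 with enough reads the 3 most similar genes, of which 1 gene is not reported here. The labels do not say that libraries came from separate fish, so p-values measure only the spread between these samples, and depth covers counting error only. Between replicates of a group the Spearman correlation across genes was 0.9125 to 0.9713. The lowest values were those of mutant trunk library 2, 0.9125 and 0.9223, and of mutant EOM library 2, 0.9334 and 0.9398.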

Additional observations from a re-analysis of the deposited data

How the results depend on the processing

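The number of the 8 genes called in EOM was 0, and it stayed 0 with RLE scaling, library totals, no filter, DESeq2, limma-voom, unstranded counts and 1 fit of 12 libraries. With the replicate block it was 2. Blocked fits chosen after seeing the data gave 1 with DESeq2, where the adjusted p of tnnt2e was 0.0811, and 2 with limma-voom. Leaving out 1 library, or 1 pair under the block, gave 0 to 2. In trunk and in the interaction 0 were called under every alternative run, the block included. In trunk desma itself, with an adjusted p of 0.0316 in the main edgeR fit, did not pass in 6 of 14 alternatives, the block included. Its adjusted p reached 0.373 in edgeR, so 0 calls among these genes do not show that trunk had no change. In EOM desma did not pass in 1 of 19 alternatives, the fit without mutant EOM library 1 (adjusted p 0.102 in edgeR). That fit called 0 of all genes. The trunk numbers did not pair the libraries (correlations of -0.10, 0.06 and -0.01), and the block called 0 genes there, against 6. The block changed no other call of the 9 genes. The count without overlap between muscles was 7 or 8 in each genotype. The share of slow and cardiac-named genes in all reads of troponin I, T or C differed by less than 1 SD with unstranded counts. Shares of single genes were not compared without strand, and tnni4b.2 kept 23836 of 79288 reads there, so the troponin I make-up in trunk depends on the strand. Shares per coding length were not run because no transcript length was used here.

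Counts over all genes were less stable. In EOM the 57 calls became 2 with library totals, 120 without a filter, 125 with DESeq2, 27 with limma-voom, 34 with 1 fit of 12 libraries, 582 with the block, 501 with the block in DESeq2, 543 with the block in limma-voom and 0 to 391 with a library or pair left out. In trunk the 6 became 3 with library totals, 52 without a filter, 614 with DESeq2, 14 with unstranded counts, 52 with 1 fit of 12 libraries and 0 to 251 with a library left out. In the interaction the 2 became 0 with library totals, 13 with DESeq2, 1 with limma-voom, 1 with unstranded counts, 3 without a filter, 3 with the block and 1 to 3 with a library left out.

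Signs turned only for estimates that passed no test, and the cause was not tested. In EOM tnnc1b (0.09) was -0.14 with library totals, -0.04 with limma-voom, -0.07 with the block, -0.05 with the block in DESeq2, -0.07 with the block in limma-voom and -0.51 to 0.40 with libraries or pairs left out (-0.47 without pair 1 under the block). In the same leave-one-out fits tnni4b.2 in EOM ran from -0.29 to 1.19. With library totals in trunk, tnni1b was -0.06, tnnt1 -0.11, tnnt2d -0.40 and tnnt2e -0.05, and with a library left out tnni1b ran from -0.06 to 0.78, tnnt1 from -0.29 to 0.80 and tnnt2d from -0.12 to 0.26. In the interaction, library totals gave 0.24 for tnni1a and 0.09 for tnni4b.2, and with a library left out tnni1a ran from -0.73 to 0.43 and tnni4b.2 from -0.94 to 0.52. Reads of tnnc1a were too few for a test in either muscle, as were those of tnni1a and tnnt2a in trunk.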
